A study of Mus musculus with 2 samples.

Results

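Effector regulatory T cells of the gastric mucosa were taken here as T cells that carried RNA of Foxp3, the lineage factor of regulatory T cells, together with RNA of the activation genes Tigit, Maf, Icos, Klrg1 and Ccr8. A cell barcode belonged to them when it had at least 1 UMI (a counted RNA molecule) of the Cd3d, Cd3e and Cd3g genes together, at least 1 Foxp3 UMI, no Cd8a, Cd8b1 or Cd79a UMI, and at least 2 UMIs of the 5 activation genes together. After barcodes with under 200 detected genes or over 10% mitochondrial UMIs were left out, 364 of 32372 cells were members. They were selected on these UMI counts and came to 226 cells in IL-27 mice and 138 cells in PBS mice. All cells were live CD45+ cells flushed from the stomach and sorted by absence of propidium iodide, and their RNA was counted with 10x Genomics 5' v1.1 chemistry. The mice were TxA23 mice in both groups, a T cell receptor transgenic strain that develops autoimmune gastritis on its own. The IL-27 group, 3 females, received 800 ng of recombinant covalently linked p28-EBI3 (rIL27, 4 ug/mL) from a mini osmotic pump placed under the skin at an age of 3 months, for 4 weeks. The PBS group, 1 male and 1 female, carried the same pump filled with PBS for the same time. The animals of each group were pooled into 1 library, so the comparison of treatments has 1 library against 1.

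Regulatory T cells restrain other immune cells through CTLA-4, through high uptake of IL-2 and through secreted factors such as IL-10 and TGF-beta. On antigen contact in tissue they leave a resting, lymph node homing state that is marked by Ccr7, Tcf7 and Bcl2, and take on an effector state driven by Batf, Irf4 and Prdm1. In barrier tissues such effector cells fall into subsets, among them ST2+ (Il1rl1) KLRG1+ GATA3+ cells that make the repair factor amphiregulin, and CXCR3+ cells.

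Barcode suffixes showed 3 wells for IL-27 and 2 for PBS. The labels do not say whether a well held 1 mouse, so p-values over wells measure only the spread between wells. PBS well 2 held all 3074 Y-linked UMIs of the series. The members numbered 68, 65 and 93 in IL-27 wells, against 65 and 73 in PBS wells. Their median depths were 2894, 3846 and 3390 UMIs in IL-27 wells, against 2760 and 3221 UMIs in PBS wells. Summed over members, a well held 266587 to 442944 UMIs. The libraries shared 337 barcode sequences among all cells and 0 among members. No doublet caller was part of the rule. In PBS, 6 members of 9108 to 26376 UMIs, 3 in each well, had at least 5 UMIs of Tyrobp, a myeloid and NK cell adaptor gene, and they held 14.3% of the PBS members' UMIs. In IL-27, 1 member of 3330 UMIs in well 1 did. Between populations, cells of 5 or more Tyrobp UMIs (the Tyrobp cells) were left out of the comparison population as well as of the members. The calls of Areg, Il18rap, C1qa and Siglech over other Foxp3+ T cells, given further on, were then not made. Nor were those of Bach2, Bst2, Il18rap and Siglech over effector CD4 T cells.

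The genes that chose the members are a description and carry no test. Maf, a transcription factor of IL-10 producing T cells, had a UMI in 249 of the 364 members, and the inhibitory receptor gene Tigit in 238. The costimulatory receptor gene Icos was seen in 228 members, Klrg1, a receptor of terminally differentiated lymphocytes, in 128, and the chemokine receptor gene Ccr8 in 73. Most members carried RNA of several of these genes, since 59 had UMIs of only 1 of the 5, 131 of 2, 110 of 3, 55 of 4 and 9 of all 5. The mix differed between wells. Klrg1 stood at 300.1, 249 and 275 CPM (UMIs per 1000000 UMIs of the members of a well) in IL-27 wells, against 384 and 56.7 CPM in PBS wells, so that PBS well 2 was far below the rest. Tigit stood at 270.1, 628 and 368 CPM in IL-27 wells, against 261 and 822 CPM in PBS wells, with PBS well 2 the highest.

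The 2-UMI threshold fell within a gradient. Cells just inside it, with 2 such UMIs, numbered 73, and cells just outside it, with 1, numbered 124. Lgals1, which encodes galectin-1, stood at 749 CPM in the cells just inside and 379 CPM in those just outside. It was at 1903 CPM in the 244 cells with 4 or more and at 248 CPM in the 281 Foxp3+ cells with none. Ccr7, the lymph node homing receptor, ran the other way, with 91.4 CPM just inside and 149 CPM just outside, against 276 CPM in the cells with none.

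The label was checked on 5 regulatory T cell genes that the rule did not use. Ctla4 had a UMI in 58.2% of members, in 33.1% of the other 405 Foxp3+ T cells (the same gate with 0 or 1 activation UMIs) and in 28.5% of 629 effector CD4 T cells without a Foxp3 UMI (Cd4+, with at least 2 activation UMIs). Il2ra, the high-affinity IL-2 receptor chain, was seen in 50.8%, 36.3% and 12.7% of these cells in the same order, and Ikzf2, the transcription factor Helios, in 78.8%, 76.3% and 47.4%. B cells, which should lack these transcripts, had them in 0.165%, 0.320% and 0.581% of 18771 cells. Median depth was 3301 UMIs in members, 2828 in other Foxp3+ T cells, 4127 in effector CD4 T cells and 2803 in B cells. The TNF receptor genes Tnfrsf18 and Tnfrsf4 were at 435 to 757 CPM and 731 to 1174 CPM in the members of the 5 wells, against 158 to 443 CPM and 206 to 556 CPM in effector CD4 T cells. All 5 genes were thus present, at levels above those of effector CD4 T cells without Foxp3 in the tests given further on.

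By the rule as given, effector regulatory T cells made up nearly equal shares of all cells in both libraries. Under IL-27 they were a smaller share of the Foxp3+ T cells. Their share of all filtered cells was 1.10% under IL-27 (exact binomial 95% interval 0.960 to 1.25), against 1.17% under PBS (0.984 to 1.38), a ratio of 0.938 (0.760 to 1.16). By well it was 0.901%, 1.08% and 1.33% in IL-27 and 1.02% and 1.34% in PBS, so the wells overlapped. Among Foxp3+ T cells the members made up 42.7% under IL-27 (38.5 to 47.1), against 57.5% under PBS (51.0 to 63.8), a ratio of 0.743 (0.642 to 0.861). The wells had 34.9%, 48.1% and 46.7% in IL-27 and 47.8% and 70.2% in PBS. PBS well 1 lay within the IL-27 wells and PBS well 2 above them all, and without PBS well 2 the ratio was 0.894. Other Foxp3+ T cells were 1.47% of all cells under IL-27, against 0.865% under PBS. Of Cd3+ cells without Cd8 or Cd79a UMIs, effector regulatory T cells were 5.02% under IL-27, against 8.69% under PBS, with 3.81%, 4.88% and 6.71% in IL-27 wells and 6.26% and 13.3% in PBS wells, where PBS well 2 alone lay above IL-27. With every cell thinned to 1500 UMIs, leaving out 1745 IL-27 and 831 PBS cells that were shallower, the share among Foxp3+ T cells was 29.3% in IL-27 and 46.5% in PBS. The share of all cells was then 0.483% in IL-27 (0.389 to 0.593) and 0.611% in PBS (0.474 to 0.776), a ratio of 0.791. Under a stricter doublet filter the ratio of the all-cell share was 0.687, below its interval given above. With 1 library in each group there is no test, and all intervals cover counting error only.

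**Figure D1:**
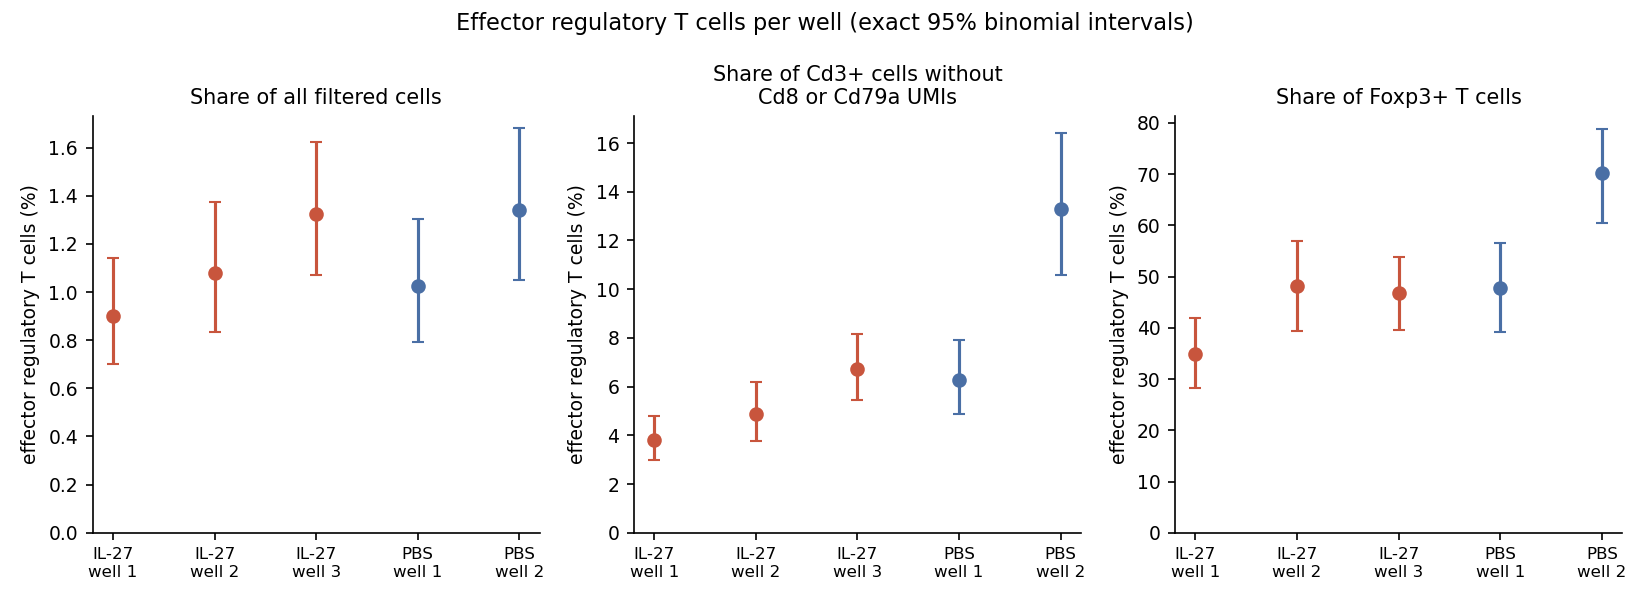
Effector regulatory T cells as a percentage of all filtered cells, of Cd3+ cells without Cd8 or Cd79a UMIs, and of Foxp3+ T cells, by well (points, exact 95% binomial intervals, IL-27 wells at left). PBS well 2 stands highest for the share of Foxp3+ T cells, at 70.2%, while PBS well 1, at 47.8%, lies among the IL-27 wells.

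Against the other Foxp3+ T cells of the same wells, effector regulatory T cells had more RNA of Prdm1, of galectin-1, of S100a4 and of the chemokine receptor gene Ccr2, and less of the resting genes Ccr7, Bcl2, Id3 and Tcf7. UMIs were summed per well and tested with edgeR's quasi-likelihood test with the well as a block. Of 5756 genes tested, 246 were higher in effector regulatory T cells (4.27%) and 165 lower (2.87%) at a Benjamini-Hochberg adjusted p under 0.05, and the median log2 fold change over all of them was -0.01. Genes of the gate were not tested. A cell with more UMIs more easily reaches 2 activation UMIs. In cells of 2000 to 5000 UMIs, in 4 wells since PBS well 2 then had under 20 other Foxp3+ T cells, 334 of 2933 genes were called. Leaving out IL-27 well 2 gave 252 calls.

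Prdm1 encodes Blimp-1, a regulator of the effector state. In effector regulatory T cells it had 52.5, 84.1 and 27.1 CPM in IL-27 wells, against 16.5 and 76.6 CPM in PBS wells. In other Foxp3+ T cells it had 0, 8.25 and 0 CPM in IL-27 wells, against 4.96 and 0 CPM in PBS wells. Every well of the members lay above every well of the comparison (log2 fold change 4.10 ± 0.56 (SE), adjusted p = 4.51e-05, edgeR). Of 13 effector transcription factors tested, 5 were higher (Prdm1, Batf, Id2, Nfil3 and Rora) and 1 was lower (Rel), with a median log2 fold change of 0.61. DESeq2 called 1 of 15. Here and below, DESeq2 counts by list are out of the list genes with at least 1 UMI. They include genes to which DESeq2 gave no adjusted p and which it could not call. Over other Foxp3+ T cells 1229 genes had an adjusted p in DESeq2. Batf, an AP-1 factor needed for effector regulatory T cells, was at 245 to 298 CPM in members and 128 to 196 CPM in other Foxp3+ T cells, without overlap (log2 fold change 0.77 ± 0.14 (SE), adjusted p = 0.000874, edgeR). Rora, a nuclear receptor, differed by 1.52 on the log2 scale (edgeR adjusted p = 4.97e-05).

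Of 16 regulatory T cell identity genes, 4 were higher (Ctla4, Tnfrsf4, Tnfrsf1b and Capg) and 4 lower (Nrp1, Lrrc32, Gpr83 and Izumo1r), with a median of 0.05. In effector regulatory T cells, Ctla4 had 206, 355 and 305 CPM in IL-27 wells, against 235 and 550.2 CPM in PBS wells. In other Foxp3+ T cells it had 135, 173 and 159 CPM in IL-27 wells, against 124 and 297 CPM in PBS wells. Within each of the 5 wells the members were higher, although the ranges of the populations overlapped (log2 fold change 0.86 ± 0.13 (SE), adjusted p = 0.000226, edgeR). Nrp1, a coreceptor associated with thymic regulatory T cells, was at 75.1 to 92.6 CPM in members and 152 to 239.8 CPM in the others, without overlap (log2 -1.15, edgeR adjusted p = 5.13e-05). Il2ra did not pass the test in this comparison, with 175 to 541 CPM in members and 201 to 384 CPM in other Foxp3+ T cells (log2 0.03 ± 0.18, SE, adjusted p = 0.956, edgeR). Ikzf2 did not pass either, at 564 to 716 CPM and 646 to 1001 CPM (log2 -0.19, adjusted p = 0.406).

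**Figure D2:**
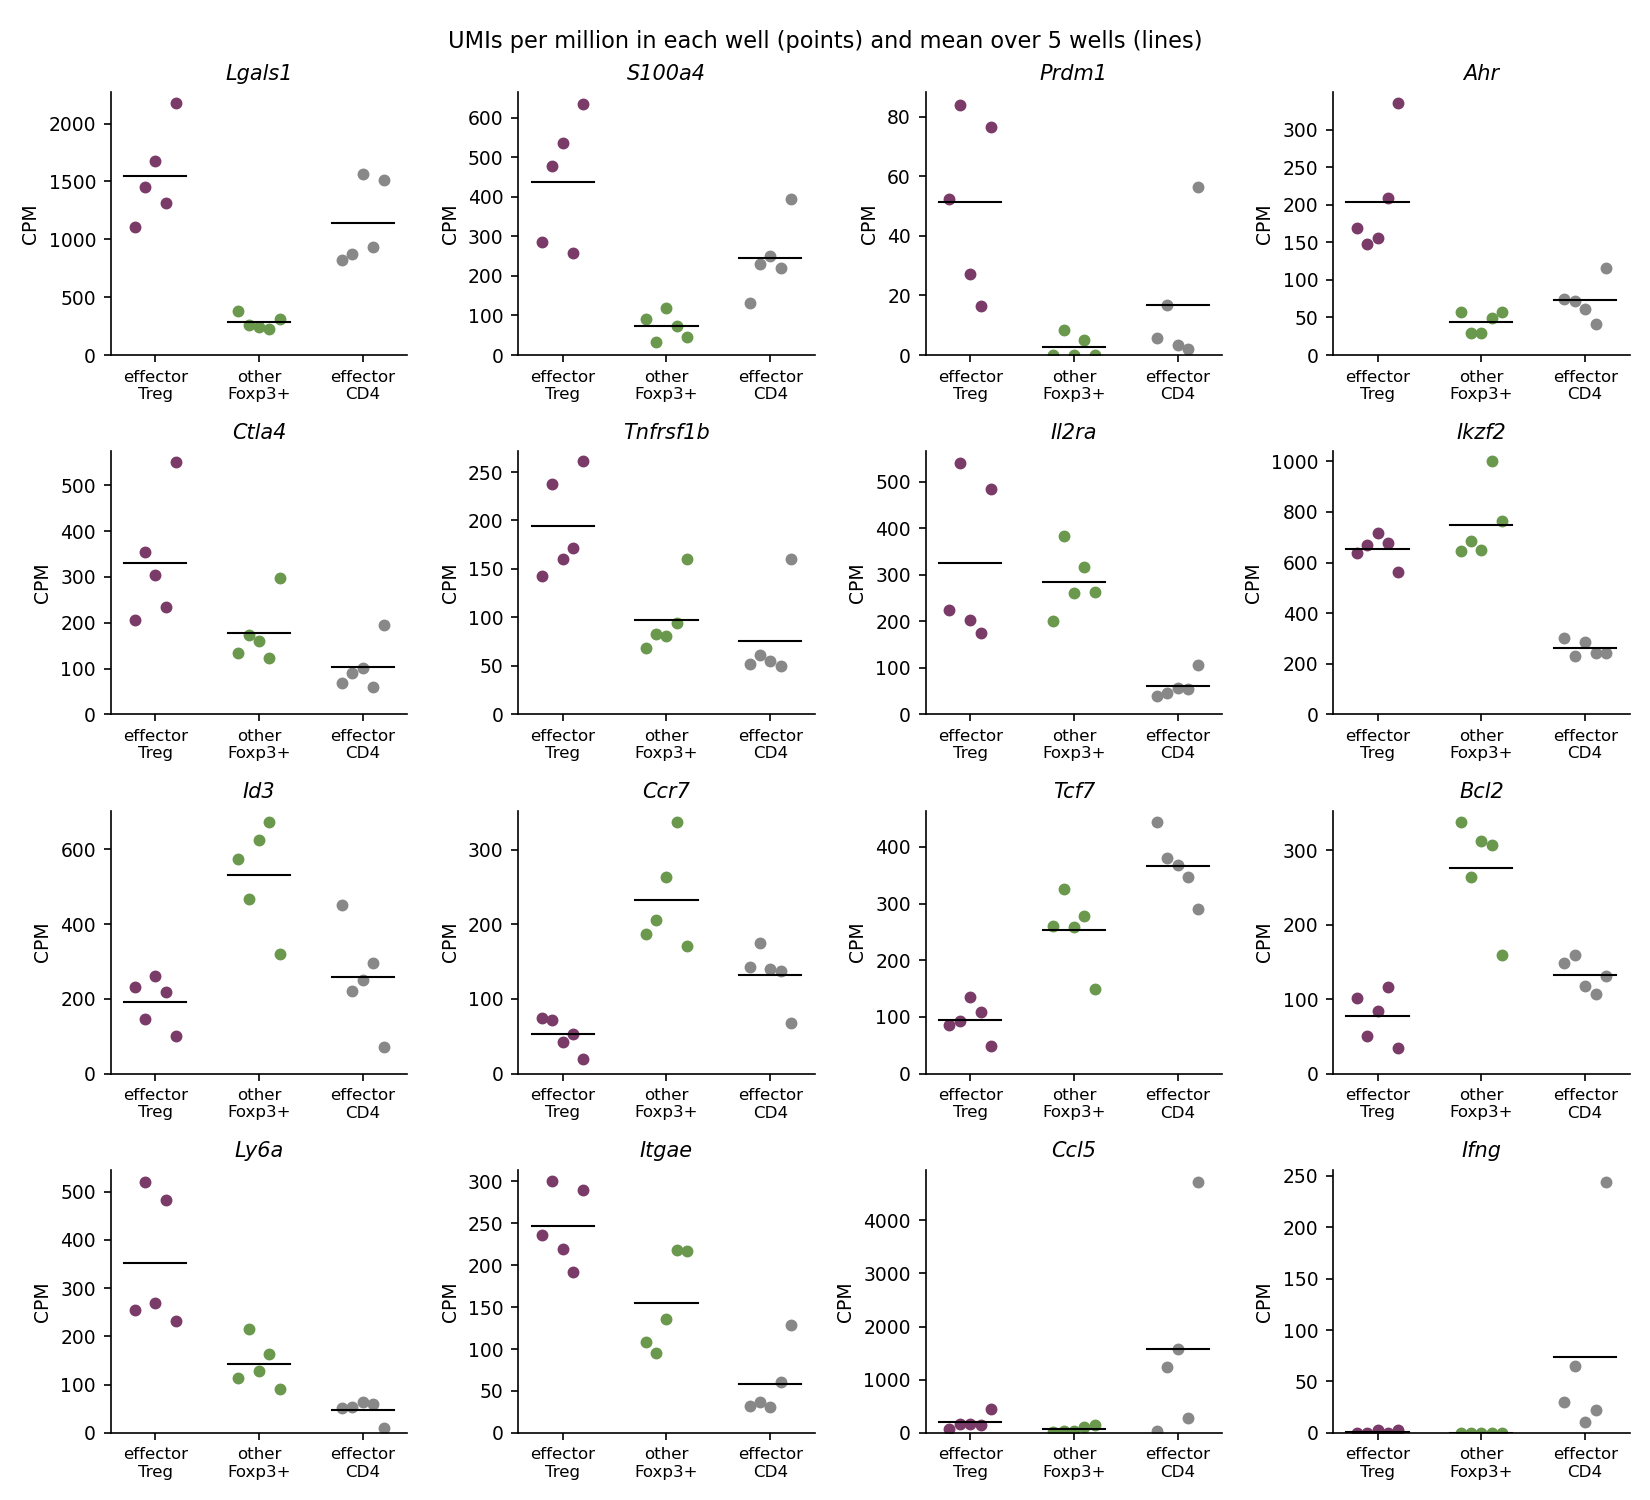
UMIs scaled to 1000000 per well (CPM) of 16 genes in each well for effector regulatory T cells, other Foxp3+ T cells and effector CD4 T cells without a Foxp3 UMI (points from left to right: IL-27 wells 1 to 3, PBS wells 1 and 2; lines: mean of 5 wells). Lgals1 is at 1107 CPM or more in every well of effector regulatory T cells and at 379 CPM or less in every well of other Foxp3+ T cells, and Ifng is near 0 in both Foxp3+ populations.

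Of 10 suppressive genes tested, 5 were higher in effector regulatory T cells (Ebi3, Fgl2, Pdcd1, Lgals1 and Areg) and 0 lower, with a median of 0.65. DESeq2 called 1 of 14 higher, and without the cells of 5 or more Tyrobp UMIs Areg did not pass the filter for testing. In members, Lgals1 had 1107, 1448 and 1673 CPM in IL-27 wells, against 1317 and 2175 CPM in PBS wells. In other Foxp3+ T cells it had 379, 259.9 and 245 CPM in IL-27 wells, against 228 and 308 CPM in PBS wells, far below all member wells (log2 fold change 2.36 ± 0.15 (SE), adjusted p = 7.30e-10, edgeR). Fgl2, a secreted fibrinogen-like inhibitor of dendritic cells, was at 71.3, 57.1, 27.1, 49.6 and 93.6 CPM in the members of IL-27 wells 1 to 3 and PBS wells 1 and 2. It was at 2.37, 8.25, 2.61, 0 and 34.3 CPM in the other Foxp3+ T cells of the same wells, and the members were higher within each well (log2 fold change 3.17 ± 0.45 (SE), adjusted p = 7.18e-05). Ebi3, the shared subunit of IL-35 and of IL-27 itself, was at 120.0, 93.2, 85.8, 56.3 and 25.5 CPM in members and 28.4, 28.9, 47.0, 19.8 and 11.4 CPM in the others, higher within each well (log2 fold change 1.44 ± 0.25 (SE), adjusted p = 0.000557). Areg, which encodes amphiregulin, had a UMI in 7.97% of members, in 0.988% of other Foxp3+ T cells and in 0.0320% of B cells (log2 fold change 2.60 ± 0.60 (SE), adjusted p = 0.00884). Tgfb1, at 275 to 386 CPM in members and 281 to 421 CPM in the others, did not pass (edgeR adjusted p = 0.728). Il10 had 16 UMIs in 5 members and was too sparse to be tested. Il12a, the partner of Ebi3 in IL-35, had none in any member.

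Of 7 genes of the ST2 tissue program, which marks tissue regulatory T cells, edgeR called Il18r1, Il1r2, Ccr2 and Ccr4 higher and 0 lower, with a median of 1.35. DESeq2 called 0 of 10, counted with or without an adjusted p. Without the cells of 5 or more Tyrobp UMIs edgeR called 6 of 7 higher, and likewise under a stricter doublet filter. In cells of 2000 to 5000 UMIs it called 4 of 5. Ccr2, a receptor for inflammatory chemokines, was at 48.8, 267, 129, 36.4 and 252 CPM in the members by well and 16.6, 4.13, 33.9, 9.91 and 34.3 CPM in the others, higher within each well (log2 fold change 2.62 ± 0.32 (SE), adjusted p = 1.10e-05, edgeR). Il1r2, a decoy receptor for IL-1, was at 71.3 to 126 CPM and 12.4 to 52.2 CPM, without overlap (log2 fold change 1.56 ± 0.28 (SE), adjusted p = 0.000753). Il1rl1, the ST2 receptor for IL-33, had 30.0, 39.1, 61.0, 29.8 and 22.7 CPM in members and 0, 12.4, 26.1, 9.91 and 45.7 CPM in the others and did not pass (log2 1.35, adjusted p = 0.0862), and the members were lower in PBS well 2 alone. Of 5 genes of the Th1-type program, Cxcr3, Il18rap and Cxcr6 were higher (median 1.31). But of the program's genes tested, 0 of 2 were called in cells of 2000 to 5000 UMIs and 0 of 2 under a stricter doublet filter. DESeq2 called 0 of 10, again with or without an adjusted p, and Il18rap was not tested without the Tyrobp cells. Ccr6 and Ahr were higher among 3 type 17 genes (median 0.98), and DESeq2 called 1 of 7. Ahr, a receptor for dietary and microbial ligands, was at 147 to 335 CPM in members and 28.7 to 57.1 CPM in other Foxp3+ T cells (log2 fold change 2.07 ± 0.19 (SE), adjusted p = 2.04e-07, edgeR). Of 3 follicular genes 0 passed in either direction (median 0.01). Among 9 homing genes the integrin genes Itgae (CD103) and Itgb7 and the gut homing receptor gene Gpr15 were higher and Itgb1 was lower (median 0.16).

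Resting genes were lower as a group. Of 15 tested, 11 were lower (among them Lef1, Tcf7, Satb1, Bach2, Bcl2, Id3, Foxp1, Actn1, Ccr7 and Klf2) and 1 was higher (Il7r), with a median of -1.37. In members, Ccr7 had 75.0, 72.1 and 42.9 CPM in IL-27 wells, against 53.0 and 19.9 CPM in PBS wells. In other Foxp3+ T cells it had 187, 206 and 264 CPM in IL-27 wells, against 337 and 171 CPM in PBS wells, above every member well (log2 fold change -2.16 ± 0.20 (SE), adjusted p = 2.04e-07, edgeR). Bcl2, a survival gene, was at 34.0 to 116 CPM in members and 159.9 to 339 CPM in the others, also without overlap (log2 fold change -1.88 ± 0.16 (SE), adjusted p = 5.14e-08). Tcf7, a factor of naive and memory T cells, was at 48.2 to 135 CPM and 148 to 326 CPM (log2 fold change -1.42 ± 0.16 (SE), adjusted p = 2.76e-06).

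Other genes with large differences included Ctla2a, Lgals7, Gna15, Neb, S100a4, Selenom, Glrx and Ttc39c, all higher in effector regulatory T cells. S100a4, a calcium-binding protein of motile cells, was at 258 to 635 CPM in members and 33.0 to 120.1 CPM in the others (log2 fold change 2.36 ± 0.22 (SE), adjusted p = 2.04e-07, edgeR). Glrx, which encodes glutaredoxin, was at 172 to 394 CPM and 33.0 to 61.6 CPM (log2 fold change 2.32 ± 0.20 (SE), adjusted p = 8.06e-08). Treml2, Igf2r, Sidt1, Gpr83, Marcksl1, Kbtbd11 and Rcn1 were lower. Lgals7 was uneven, with 0, 18.03, 65.5, 19.9 and 184 CPM in the members by well. The macrophage genes C1qa and Apoe were also lower. C1qa was at 0 in the members of all 5 wells and at 2.37, 0, 39.2, 4.96 and 399.7 CPM in the other Foxp3+ T cells, and neither gene passed the filter for testing without cells of 5 or more Tyrobp UMIs. The other 28 genes named by the ranking rule were called without those cells too.

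Of 11 cell cycle genes tested, edgeR called 6 higher in effector regulatory T cells (Stmn1, Birc5, Ccna2, Rrm2, Hmgb2 and Pclaf) and 0 lower, with a median of 1.58. In cells of 2000 to 5000 UMIs 0 of 2 tested were called, under the stricter doublet filter 0 of 2, and DESeq2 called 1 of 14. Pclaf, a PCNA-binding replication factor, was at 233, 105, 131, 142 and 48.2 CPM in members and 87.6, 8.25, 2.61, 0 and 0 CPM in other Foxp3+ T cells (log2 fold change 2.56 ± 0.37 (SE), adjusted p = 8.71e-05, edgeR). Cells with UMIs of at least 2 of 6 cycling genes were 17 of 364 members (4.67%), 4 of 405 other Foxp3+ T cells (0.988%) and 34 of 629 effector CD4 T cells (5.41%), at the unequal depths given above. The 4 cycling cells among other Foxp3+ T cells all came from IL-27 well 1.

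The receptor for IL-27 was detected. In members, Il27ra had 203, 264 and 217 CPM in IL-27 wells, against 156 and 179 CPM in PBS wells. In other Foxp3+ T cells it had 253, 322 and 245 CPM in IL-27 wells, against 302 and 308 CPM in PBS wells, and the members were lower within each well although the ranges overlapped (log2 fold change -0.49 ± 0.14 (SE), adjusted p = 0.0381, edgeR). Il6st, which encodes the shared signalling chain gp130, was lower as well (log2 fold change -0.72 ± 0.20 (SE), adjusted p = 0.0267), and the remaining 7 of the 9 genes of this pathway did not pass (median over the list -0.23). Of the 9 genes 1 was lower under the stricter doublet filter, 1 of 7 tested in cells of 2000 to 5000 UMIs, and 0 by DESeq2. Of 27 interferon response genes, Ly6a, Ly6e and Ifi27l2a were higher and 0 lower (median -0.07). Ly6a, the stem cell antigen Sca-1, was at 233 to 519.9 CPM in members and 91.4 to 215 CPM in the others (log2 fold change 1.24 ± 0.14 (SE), adjusted p = 2.76e-06). Of 11 stress genes Ier2 was lower (median -0.03), and of 5 cytokine and other genes Tnfsf8, the CD30 ligand, was lower (log2 fold change -1.32 ± 0.24 (SE), adjusted p = 0.000863).

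RNA of marker genes of other cell types was found in both Foxp3+ populations. The B cell transcripts Igkc and Ighm were higher in effector regulatory T cells, the only called genes of 6 B cell markers tested. Ighm had a UMI in 55.2% of members, in 28.4% of other Foxp3+ T cells and in 24.3% of effector CD4 T cells. Igkc was seen in 15.4%, 3.95% and 6.84% of them. In B cells the shares were 85.8% and 87.2%. All 12 B cell markers together stood at 769, 559 and 799 CPM in IL-27 wells and 2369.7 and 1452 CPM in PBS wells of the members. In the same wells of other Foxp3+ T cells they stood at 497, 363 and 1094 CPM and at 392 and 4556 CPM. The 9 myeloid markers together ranged from 203 to 2099 CPM in the members, with C1qa at 0, and from 140.3 to 2238 CPM in the others, with S100a8 and Siglech at 0. Of 4 of them tested Siglech was higher and C1qa lower. All 42 Siglech UMIs of the members lay in 2 of the PBS cells with Tyrobp, 21 in each, and without those cells neither gene was tested. Plasma cell, NK and gamma-delta, mast cell and gastric epithelial markers had 1, 1, 0 and 1 genes tested and 0 called. Ncr1, Klrb1c and Klre1, which define NK cells, were at 0 in members. The part of such RNA in the differences was not tested.

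Against effector CD4 T cells without Foxp3, which passed the same activation gate, the members had more RNA of regulatory T cell identity genes, CD103 and the IL-33 receptor, and less of cytokines, cytotoxic genes and helper ligands. Of 6741 genes tested, 247 were higher in effector regulatory T cells (3.66%) and 196 lower (2.91%), with a median of -0.01. A Foxp3+ cell can lack a Foxp3 UMI at this depth, so the comparison population may hold regulatory T cells. Both comparisons use the same member UMIs and are not independent.

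Of 15 identity genes tested, 11 were higher (Il2ra, Il2rb, Ctla4, Ikzf2, Ikzf4, Tnfrsf18, Tnfrsf4, Tnfrsf9, Tnfrsf1b, Itgb8 and Capg) and 0 lower, with a median of 1.37. In members, Il2ra had 225, 541 and 203 CPM in IL-27 wells, against 175 and 485 CPM in PBS wells. In effector CD4 T cells it had 39.5, 44.8 and 57.5 CPM in IL-27 wells, against 54.6 and 106 CPM in PBS wells, below every member well (log2 fold change 2.37 ± 0.19 (SE), adjusted p = 4.05e-08, edgeR). Ikzf2 was at 564 to 716 CPM in members and 229 to 302 CPM in effector CD4 T cells (log2 fold change 1.29 ± 0.11 (SE), adjusted p = 4.05e-08), and Ctla4 was higher within each well (log2 fold change 1.67 ± 0.12 (SE), adjusted p = 1.93e-08). The highest named fold change was that of Flicr, a noncoding RNA of the Foxp3 locus, at 81.1 to 145 CPM and 2.82 to 26.4 CPM (log2 fold change 3.17 ± 0.28 (SE), adjusted p = 1.16e-07). Flicr lies on chromosome X at 7573600 to 7581027, plus strand (GRCm38, GENCODE M21), and overlaps Foxp3 (7573644 to 7595245, plus strand) and Ppp1r3f, so its reads and those of Foxp3, which chose the members, cannot be told apart with certainty.

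Of the other genes with the highest fold changes, Rln3 encodes relaxin-3. In members it had 293, 189 and 196 CPM in IL-27 wells, against 195 and 48.2 CPM in PBS wells. In effector CD4 T cells it had 38.1, 17.9 and 32.2 CPM in IL-27 wells, against 6.55 and 18.1 CPM in PBS wells, all below the lowest member well (log2 fold change 2.94 ± 0.22 (SE), adjusted p = 2.19e-08, edgeR). Rln3 lies on chromosome 8 at 84042929 to 84045000, minus strand, within 5 kb of Il27ra, and it did not pass against other Foxp3+ T cells (log2 0.13, adjusted p = 0.872). Ly6a was at 233 to 519.9 CPM in members and 9.03 to 63.2 CPM in effector CD4 T cells (log2 fold change 2.78 ± 0.19 (SE), adjusted p = 1.09e-08). The kinase gene Pim1 (log2 fold change 2.09 ± 0.13 (SE), adjusted p = 1.29e-09) and the JAK-STAT brake Socs2 (log2 fold change 2.15 ± 0.17 (SE), adjusted p = 2.59e-08), both targets of STAT5, were higher too. Itgae, which binds epithelial cadherin, was at 192 to 301 CPM and 31.0 to 129 CPM, without overlap (log2 fold change 2.21 ± 0.21 (SE), adjusted p = 4.10e-07). Lamc1, Serpina3i, Serpina3g, Selenom, Neb, Ncmap, Ccr2 and Ttn completed the ranking. Serpina3 genes are near-identical copies and their counts are uncertain.

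Tissue repair and suppressive genes split. Il1rl1 was at 22.7 to 61.0 CPM in members and 1.41 to 8.05 CPM in effector CD4 T cells (log2 fold change 2.99 ± 0.40 (SE), adjusted p = 3.77e-05, edgeR). Il1rl1, Il1r2, Nfkbia and Ccr2 were higher among 7 genes of the ST2 tissue program and 0 were lower (median 0.60). Areg was higher as well (log2 fold change 3.29 ± 0.61 (SE), adjusted p = 0.00134). Of 13 suppressive genes, Ebi3, Fgl2, Lgals1 and Areg were higher (median over the list -0.07). The inhibitory receptors Lag3 and Pdcd1 and the cytotoxic effectors Gzmb and Prf1 were lower. In cells of 2000 to 5000 UMIs 3 of 8 tested were higher and 1 lower. Under the stricter doublet filter 4 of 11 were higher and 2 lower, and in DESeq2 4 of 14 and 2. Gzmb had a UMI in 6 of 364 members (1.65%) and 17 of 629 effector CD4 T cells (2.70%), at unequal depths. The exact intervals, 0.607 to 3.55 and 1.58 to 4.29, overlapped. Lag3 was at 72.8 to 295 CPM in members and 192 to 515 CPM in effector CD4 T cells (log2 fold change -0.95 ± 0.13 (SE), adjusted p = 3.18e-05). Of 13 transcription factors Prdm1, Batf, Hif1a, Gata3 and Rora were higher and Id2 was lower (median 0.30).

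Cytokines and chemokines were lower. Ifng had 0, 0 and 2.26 CPM in IL-27 wells and 0 and 2.84 CPM in PBS wells of the members. In effector CD4 T cells it had 29.6, 65.3 and 10.3 CPM in IL-27 wells, against 21.8 and 244 CPM in PBS wells, above the members in every well (log2 fold change -5.73 ± 0.46 (SE), adjusted p = 3.98e-08, edgeR). A UMI of Ifng was found in 2 of 364 members (0.549%) and 47 of 629 effector CD4 T cells (7.47%), against 0.154% of B cells. Ccl5 was at 78.8, 168, 165, 142 and 457 CPM in the members by well and 29.6, 1239.7, 1580.1, 275 and 4717 CPM in effector CD4 T cells (log2 fold change -2.56 ± 0.34 (SE), adjusted p = 2.90e-05), although in IL-27 well 1 the members were higher. Ccl4, Ccl3, Nkg7 and Eomes, genes of cytotoxic and Th1 cells, were also lower, with log2 fold changes of -3.80, -3.05, -2.51 and -3.23. The helper ligand genes Cd40lg, at 2.84 to 26.3 CPM in members and 65.5 to 128 CPM in effector CD4 T cells, and Tnfsf8, at 28.4 to 45.1 CPM and 170.2 to 316 CPM, did not overlap. Of 7 cytokine and other genes, Il4, Tnfsf8, Tnfsf11, Cd40lg and Myb were lower and 0 higher (median -1.11). Il2, Il5, Il13, Il17a and Csf2 had no UMI in any member.

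The named genes Rgcc, Ehd3, Dennd2d and Tcf7 were lower too. Ccl8, Apoe and Spp1, which macrophages express, were lower in the members, but Apoe was not called without cells of 5 or more Tyrobp UMIs (log2 -0.82, adjusted p = 0.602, edgeR), and Spp1 had the other sign in cells of 2000 to 5000 UMIs (log2 0.26, adjusted p = 0.916). Of the remaining lists, the Th1-type program had Il18rap higher and Ifng, Cxcr6 and Gzmk lower of 9 tested (median -0.24). Il18rap was not called without the Tyrobp cells (log2 0.96, adjusted p = 0.0940, edgeR), in cells of 2000 to 5000 UMIs or by DESeq2, which called 1 of 11 lower. The type 17 program had Ccr6 and Ahr higher and Tmem176a and Tmem176b lower of 5 (median 0.31). The follicular program had 4 of 8 lower, Cxcr5, Tox2, Cd200 and Sostdc1 (median -0.79). Resting genes had 9 of 16 lower and 0 higher (median -0.85), among them Bach2, which was at an adjusted p of 0.0524 in edgeR without the Tyrobp cells, and homing genes 3 of 9 higher and 2 lower (median 0.38). Of 9 genes of the IL-27 pathway the feedback inhibitors Socs1 and Socs3 were higher and Il6st lower (median 0.05). Interferon response genes had 5 of 26 higher and 2 lower (median 0.01), but Bst2 was not called without the Tyrobp cells (log2 0.19, adjusted p = 0.605, edgeR). Of 13 stress genes Junb and Dusp1 were higher (median 0.15), and of 13 cell cycle genes 0 were called (median -0.05). Igkc and Ighm of 6 B cell markers, Cst3 and Siglech of 3 myeloid markers and Epcam of 2 epithelial genes were higher, Eomes of 2 NK genes was lower, and the 1 plasma cell gene tested was not called. Siglech was not tested without the Tyrobp cells, which held all of its UMIs in the members.

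**Figure D3:**
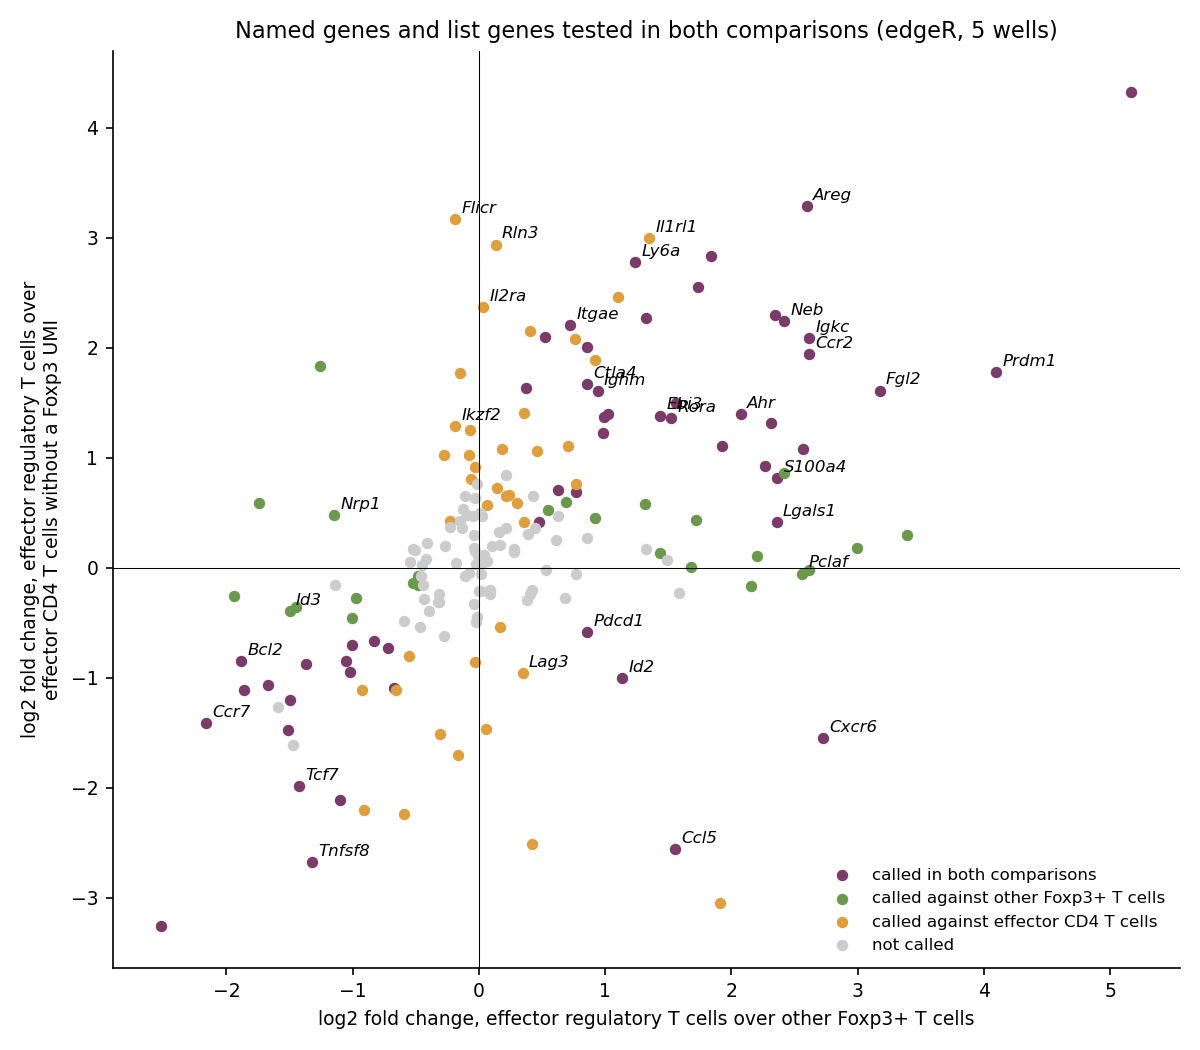
Log2 fold changes (edgeR, 5 wells) of named genes and list genes tested in both comparisons, over other Foxp3+ T cells (horizontal axis) and over effector CD4 T cells without a Foxp3 UMI (vertical axis); colours mark the comparison in which a gene was called. Prdm1, Fgl2, Ahr, Areg and Ly6a are higher in both, Il2ra, Ikzf2 and Rln3 are called over effector CD4 T cells alone, and Ccr7, Bcl2 and Tcf7 are lower in both.

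Genes of regulatory T cell subsets had UMIs in part of the members. Il1rl1 had a UMI in 49 members (13.5%), against 3.21% of other Foxp3+ T cells, 1.75% of effector CD4 T cells and 0.160% of B cells. Cxcr3 had a UMI in 52 members and Cxcr5, the B cell follicle homing receptor, in 25. UMIs of both Cxcr5 and Il1rl1 were found in 0 members, of both Cxcr3 and Cxcr5 in 2 and of both Cxcr3 and Il1rl1 in 5. Whether these counts are fewer than independent detection would give was not tested. Klrg1 was seen in 33 of the 49 Il1rl1+ members, 3 of the 25 Cxcr5+ members and 11 of the 52 Cxcr3+ members, against 128 of all 364 members (35.2%). Klrg1 UMIs counted towards the rule that chose the members, so these shares depend on that rule and are a description only. Cells with a UMI are fewer than cells that express a gene, so a shared count of 0 does not show that no cell expresses both.

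Members with a Klrg1 UMI had more RNA of Il1rl1, Gata3 and Areg than those without, while of 7 genes of the ST2 tissue program Il1rl1 and Nfkbia were at least 1.5-fold higher and Il1r2 lower (median log2 ratio -0.22). Klrg1 is a gene of the rule, the split was made within it, and the genes named here were chosen after their values were seen, so no test is given. The 128 Klrg1+ members had a median of 3024.5 UMIs and the 236 without 3351.5. Of 7562 genes with at least 20 UMIs, 680 were at least 1.5-fold higher (8.99%) and 778 at least 1.5-fold lower (10.3%) in Klrg1+ members. Il1rl1 stood at 83.4 CPM in Klrg1+ members (exact Poisson 95% interval 61.0 to 111) and 16.6 CPM in the others (9.99 to 25.9), higher in 4 of 5 wells. Areg, at 52.6 CPM and 15.7 CPM, was higher in the same number of wells. In both genes the exception was PBS well 2, where the 10 Klrg1+ members had no UMI. Gata3, the type 2 factor that ST2+ regulatory T cells use, stood at 227 CPM in Klrg1+ members and 117 CPM in the others, higher in 5 of 5 wells. Il7r, the IL-7 receptor, at 486 CPM and 208 CPM, Itgae, at 361 CPM and 193 CPM, Ikzf2, at 926 CPM and 527 CPM, and Epcam, at 81.5 CPM and 17.5 CPM, were higher in all wells too. Penk, which encodes proenkephalin, was at 1058 CPM in Klrg1+ members and 466 CPM in the others, and higher in 4 of 5 wells.

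Of 15 resting genes 5 were at least 1.5-fold lower in Klrg1+ members and Il7r was higher (median -0.20). Ccr7 stood at 19.9 CPM in Klrg1+ members and 65.5 CPM in those without, and Tcf7 at 39.9 CPM and 124 CPM. Il1r2, at 45.3 CPM and 125 CPM, Il6st, at 27.2 CPM and 80.3 CPM, and Cxcr3, at 25.4 CPM and 56.8 CPM, had the same direction, and each of these 5 genes was lower in Klrg1+ members in all 5 wells. Of 5 type 17 genes measured 4 were at least 1.5-fold lower in Klrg1+ members and Ahr was higher, and of 11 suppressive genes 5 were at least 1.5-fold higher and 2 lower. Ctla4, at 348 CPM and 333 CPM, and Il2ra, at 357 CPM and 312 CPM, had overlapping intervals.

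**Figure D4:**
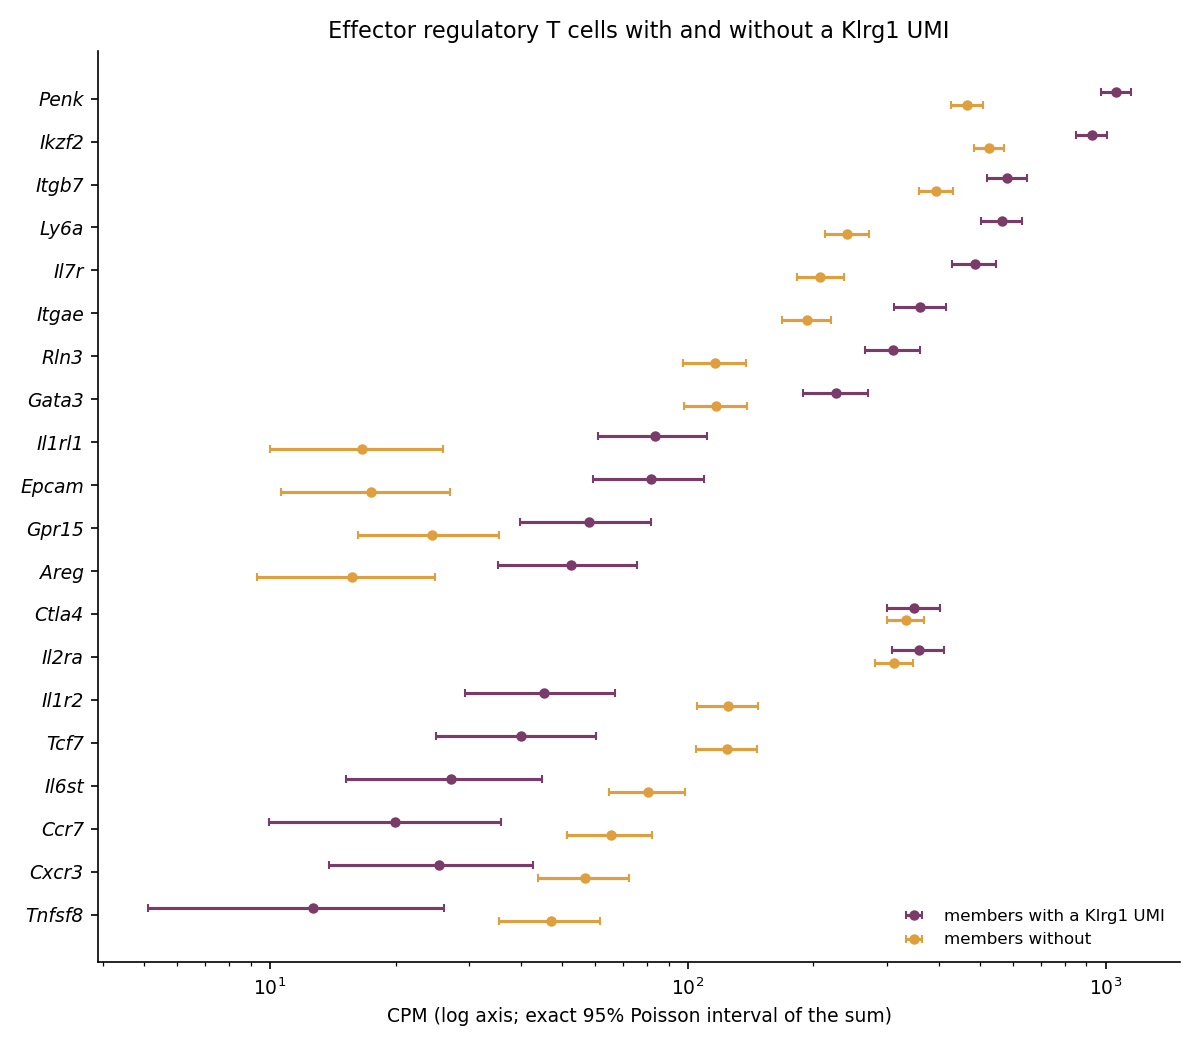
UMIs scaled to 1000000 (CPM, log axis) of 20 genes in the 128 members with a Klrg1 UMI and the 236 without, summed over both libraries, with exact 95% Poisson intervals. Il1rl1, Epcam and Areg are several times higher in Klrg1+ members, Ccr7, Tcf7 and Il1r2 lower, and Ctla4 and Il2ra overlap.

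The members carried a mixed T cell receptor repertoire in which Trbv1 led most often. Among 311 members with a leading Trbv gene (the beta chain variable gene with most UMIs in the cell), Trbv1 led in 135, or 43.4% (exact 95% interval 37.8 to 49.1). The share was 43.1% of 339 other Foxp3+ T cells, 45.8% of 548 effector CD4 T cells, 55.7% of 1544 remaining CD4 T cells without Foxp3 and 27.4% of 1865 CD8 T cells. Pooled over wells, the members' interval held the values of other Foxp3+ and effector CD4 T cells and lay above that of CD8 T cells. By well, Trbv1 led in 42.4%, 31.4% and 42.0% of IL-27 members and 45.6% and 54.0% of PBS members. In the remaining CD4 T cells it led in 57.9%, 48.0% and 56.3% in IL-27 wells, against 64.4% and 38.5% in PBS wells. The members were thus below these cells in 4 wells and above them in PBS well 2, where 52 of the remaining CD4 T cells had a leading gene. Trbv31 followed with 11.9% and Trbv13-2 with 8.36%. A Trbv1 UMI was present in 275 of the 364 members, and 176 of these also had a UMI of another Trbv gene. Trav4-3 (13.9%), Trav14d-3-dv8 (10.3%) and Trav4-4-dv10 (8.79%) led most often among 273 members with a leading alpha chain gene, but Trav genes have near-identical copies and their counts are uncertain.

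Between IL-27 and PBS, few genes of the effector regulatory T cells passed a test over wells, and most of those that did had most of their PBS UMIs in 6 cells with Tyrobp. In edgeR with 3 IL-27 wells against 2 PBS wells, 1 of 5089 genes was higher in IL-27 (0.0197%) and 22 were lower (0.432%). The 6 PBS cells with at least 5 Tyrobp UMIs held at least 90% of the PBS UMIs of 9 of the 22 lower genes and at least 50% of those of 19. Tyrobp had 22.5, 0 and 2.26 CPM in IL-27 wells, against 301 and 346 CPM in PBS wells. Ccl6, a myeloid chemokine, had 3.75, 0 and 0 CPM in IL-27 wells, against 132 and 284 CPM in PBS wells, and all of its PBS UMIs were in these cells. Siglech, a gene of plasmacytoid dendritic cells, Alox5ap, Fcer1g, Irf8, Cd74, H2-Aa, H2-Ab1, Cst3 and Bst2 had between 66.4% and 100% of their PBS UMIs there. Without the 7 cells 0 of 4830 genes were called by edgeR, while 203 had an unadjusted p under 0.05. DESeq2, on all members, called 13, all lower, of which 12 were among the 23 of edgeR. Leaving out PBS well 1 gave 104 calls in edgeR, and leaving out IL-27 well 2 or 3 gave 14 or 15. Lyz2 and Lyz1, near-identical copies, headed the ranking by library, and their PBS values, 13.2 and 1565 CPM and 0 and 516 CPM, came almost wholly from PBS well 2. Without the 7 cells Lyz2 was at 0, 3.01 and 0 CPM in IL-27 wells, against 3.83 and 6.66 CPM in PBS wells.

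The gene that was higher in IL-27 was Birc5, which encodes survivin, a mitotic and survival protein. It stood at 78.8, 72.1 and 83.5 CPM in IL-27 wells, against 23.2 and 19.9 CPM in PBS wells, without overlap (log2 fold change 1.86 ± 0.35 (SE), adjusted p = 0.0239, edgeR). All IL-27 wells lay above both PBS wells in 9.43% of the 2610 genes measured between the libraries. Birc5, with 96 UMIs, was under the minimum for that set. Without the 7 cells its log2 fold change was 2.12 at an adjusted p of 0.339 (edgeR). With a well left out the adjusted p ranged from 0.00868 to 0.197, and Birc5 was called in 1 of 5 such fits. Of the lower genes, Id2 and Rgs16 had few UMIs in those cells, 14.9% and 4.17% of their PBS UMIs. Id2, an inhibitor of E proteins, stood at 86.3, 66.1 and 85.8 CPM in IL-27 wells, against 136 and 227 CPM in PBS wells (log2 fold change -1.19 ± 0.24 (SE), adjusted p = 0.0427, edgeR). Rgs16, a brake on chemokine receptor signalling, stood at 22.5, 48.1 and 51.9 CPM in IL-27 and 86.1 and 199 CPM in PBS (log2 fold change -1.74 ± 0.35 (SE), adjusted p = 0.0379). Neither gene's wells overlapped, as in 9.39% of the 2610 genes measured between the libraries, where all IL-27 wells lay below both PBS wells. Without the 7 cells neither was called, at a log2 fold change of -1.17 for Id2 (edgeR adjusted p = 0.547) and -1.89 for Rgs16 (0.339). With a well left out the adjusted p in edgeR ranged from 0.000158 to 0.591 for Id2 and from 1.87e-06 to 0.617 for Rgs16, and each was called in 1 of 5 fits.

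**Figure D5:**
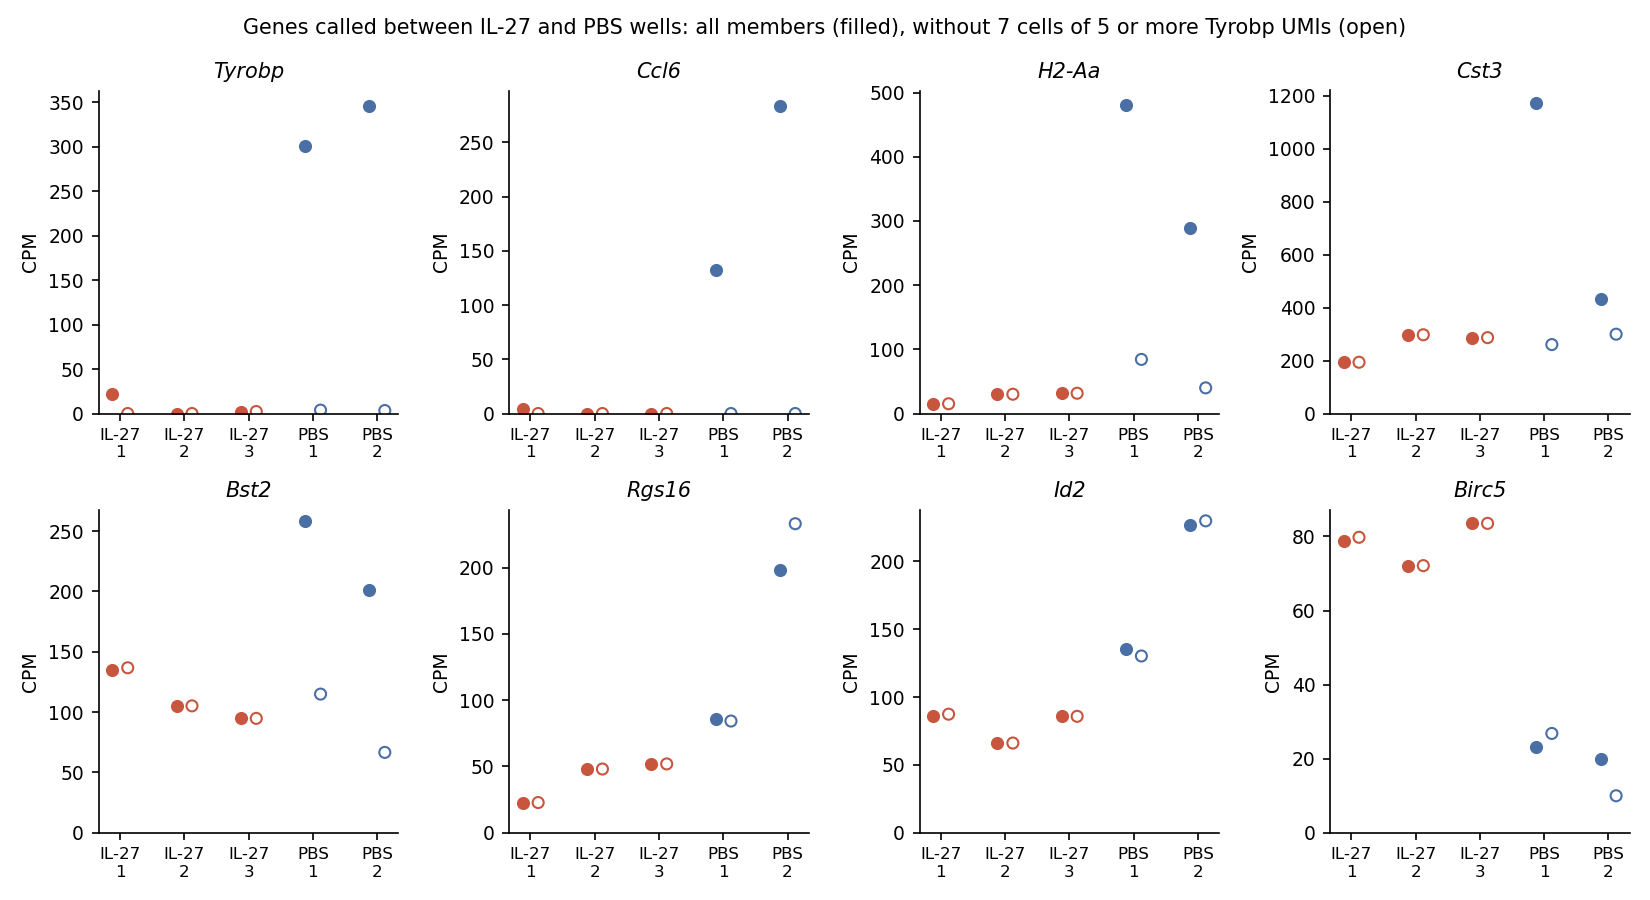
UMIs scaled to 1000000 per well (CPM) of 8 genes called between IL-27 wells (left in each panel) and PBS wells, in all members (filled) and without the 7 members of 5 or more Tyrobp UMIs (open). Without these cells the PBS values of Tyrobp and Ccl6 are near 0 and those of Cst3 overlap the IL-27 values, while Rgs16, Id2 and Birc5 still do not overlap. With all members, IL-27 wells all lay below both PBS wells in 9.39% of 2610 measured genes, and above in 9.43%.

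Comparing the libraries as wholes, 38 of 2610 measured genes (those with 100 UMIs or more and, in the library where they were higher, 50 CPM or more) were at least 1.5-fold higher in IL-27 (1.46%) and 63 were at least 1.5-fold lower (2.41%). In 246 genes (9.43%) all IL-27 wells lay above both PBS wells, and in 245 (9.39%) below. Without PBS well 1 the number past 1.5-fold was 207 in place of 101, and without PBS well 2 it was 167. Ube2c, a mitotic ubiquitin ligase, had 26.3, 159 and 108 CPM in IL-27 wells, against 29.8 and 2.84 CPM in PBS wells, which overlapped (ratio 6.78, 95% interval 3.55 to 14.5, counting error only). Ebi3 had 120.0, 93.2 and 85.8 CPM in IL-27 and 56.3 and 25.5 CPM in PBS, without overlap (ratio 2.44, 95% interval 1.57 to 3.91), but it did not pass over wells (edgeR adjusted p = 0.234, edgeR). Satb1, a chromatin organiser of naive and resting regulatory T cells, had 75.0, 78.1 and 92.6 CPM in IL-27 and 53.0 and 17.02 CPM in PBS (ratio 2.48, 95% interval 1.54 to 4.17). Stat6, the IL-4 signal transducer, had 75.0, 84.1 and 92.6 CPM in IL-27 and 56.3 and 39.7 CPM in PBS (ratio 1.80, 95% interval 1.19 to 2.81). Pde4b, a cAMP phosphodiesterase, had 161, 111 and 156 CPM in IL-27 and 79.4 and 70.9 CPM in PBS (ratio 1.91, 95% interval 1.37 to 2.69). The IL-27 wells of Ebi3, Satb1, Stat6 and Pde4b all lay above both PBS wells. Rln3, Dnah8, Sike1, Tnfrsf25, Ctla2a, Slc29a1 and Tspan31 made up the rest of the 12 highest ratios.

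Several of the lower ratios rested on PBS well 2. Dusp4, a MAP kinase phosphatase, had 30.0, 36.1 and 40.6 CPM in IL-27 and 46.3 and 176 CPM in PBS (ratio 0.314, 95% interval 0.207 to 0.470), highest in PBS well 2. Lgals7 had 0, 18.03 and 65.5 CPM in IL-27 and 19.9 and 184 CPM in PBS, and without PBS well 2 its log2 ratio was 0.73 in place of -1.66. Ccl5 and Thy1 were high in PBS well 2 only, at 142 and 457 CPM and 195 and 539 CPM in the PBS wells against 78.8, 168 and 165 CPM and 165, 135 and 196 CPM in the IL-27 wells. This well also held the gastric epithelial transcripts Gkn1, Gkn2 and Tff1 at 82.2, 102 and 162 CPM in its members, where the other 4 wells had at most 15 CPM of each. All 12 gastric epithelial and erythroid markers together stood at 30.0, 60.1 and 49.7 CPM in IL-27 wells, against 82.7 and 380.0 CPM in PBS wells, with Tff2, Atp4a, Atp4b, Gif and Hba-a1 at 0. It was the well with Y-linked RNA, so the male's cells and the well cannot be told apart.

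Of 9 T cell activation and stress genes measured, Nr4a1, Egr1, Jun and Ier2 were at least 1.5-fold lower and 0 higher, with a median log2 ratio of -0.56 against -0.01 for all measured genes. Nr4a1, an early gene of T cell receptor signalling, had 33.8, 108 and 106 CPM in IL-27 and 261 and 156 CPM in PBS (ratio 0.431, 95% interval 0.327 to 0.567). Egr1 had 67.5, 126 and 117 CPM in IL-27 and 159 and 233 CPM in PBS (ratio 0.541, 95% interval 0.417 to 0.702). For both genes all IL-27 wells lay below both PBS wells, as they did in 9.39% of all measured genes. Of the list's 10 genes tested over wells edgeR called 0. Without the 7 cells 5 of 8 were at least 1.5-fold lower. Such genes are also induced by tissue dissociation, whose part was not tested.

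Ahr and Ccr6, the 2 type 17 genes measured, were both at least 1.5-fold lower. Ahr had 169, 147 and 156 CPM in IL-27 wells, against 209 and 335 CPM in PBS wells (ratio 0.566, 95% interval 0.455 to 0.703; adjusted p = 0.210, edgeR). Ccr6 had 82.5, 48.1 and 49.7 CPM in IL-27 and 96.0 and 93.6 CPM in PBS (ratio 0.608, 95% interval 0.419 to 0.881). Neither gene's wells overlapped, with all IL-27 wells below both PBS wells as in 9.39% of all measured genes. Id2, Bhlhe40 and Ikzf3 were at least 1.5-fold lower among 8 transcription factors (median -0.07), and Pclaf and Ube2c at least 1.5-fold higher among 4 cell cycle genes (median 0.54). Cycling cells were 12 of 226 members in IL-27 (5.31%) and 5 of 138 in PBS (3.62%), with intervals that overlapped.

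Measured genes of the IL-27 pathway and of regulatory T cell identity stayed within 1.5-fold. Of 7 measured genes of the IL-27 receptor and its signalling 0 were past it (median -0.11). Il27ra had 203, 264 and 217 CPM in IL-27 and 156 and 179 CPM in PBS (ratio 1.36, 95% interval 1.08 to 1.72), and Socs3 45.0, 51.1 and 88.0 CPM and 23.2 and 82.2 CPM (ratio 1.19, 95% interval 0.781 to 1.83). The Il27ra wells of IL-27 lay above both of PBS, as in 9.43% of all measured genes, and those of Socs3 overlapped. The test over wells was not passed (adjusted p = 0.930 for Il27ra, edgeR). Of 13 identity genes 0 were past 1.5-fold in either direction (median -0.16), and likewise 0 of 6 genes of the ST2 program, 3 follicular genes and 7 homing genes (medians 0.03, -0.01 and 0.03). Of 17 interferon response genes 0 were higher and Bst2 was lower (median 0.11), and Bst2 was not past 1.5-fold without the 7 cells. Foxp3 itself, which chose the members, had 401, 415 and 399.6 CPM in IL-27 and 334 and 419.7 CPM in PBS. Ebi3 of 6 suppressive genes (median -0.28), Satb1 of 10 resting genes (median 0.27) and Tnfsf11 of 1 cytokine gene were higher, and 0 of these lists' genes were lower. Tnfsf11 was not past 1.5-fold without the 7 cells. Without them Pdcd1 of the 6 suppressive genes was at least 1.5-fold lower, and Id3 of the 10 resting genes was at least 1.5-fold higher, as was Satb1. Of the markers of other cells, 4 of 6 B cell genes and 2 of 2 myeloid genes were lower, and without the 7 cells 0 of the 3 and 0 of the 1 still measured. The 1 plasma cell gene measured was not past 1.5-fold, and 0 genes of the Th1-type program, NK, mast cell and epithelial lists had enough UMIs. Noct had 18.8, 15.03 and 29.3 CPM in IL-27 and 106 and 34.0 CPM in PBS, highest in PBS well 1. Its value in PBS well 2 lay just above the IL-27 wells, and the test over wells was not passed (adjusted p = 0.431, edgeR).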

How the data were processed

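The deposited values are UMI counts of genes in barcodes, not normalized, which the authors made with Cell Ranger 3.0.0 on mm10, per the submitters' processing notes (the matrix header names 3.1.0). Strandedness is not given in the sources used here. Of 33173 barcodes, 73 had under 200 genes, 791 had over 10% mitochondrial UMIs, and 32372 were kept, with no doublet removal. The members and the gene lists were chosen with earlier results of these data known.

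UMIs of each population were summed per well (the barcode suffix). Genes passing filterByExpr were tested with edgeR 4.0.16 (TMM, quasi-likelihood test, Benjamini-Hochberg adjustment over all of them, threshold 0.05), with the well as a block between populations of the same wells. Libraries were compared by CPM ratio with an exact conditional Poisson interval. A gene was called past 1.5-fold on log2(CPM + 1), which understates changes of low genes. DESeq2 1.42.0 was an alternative. Its counts by list are out of list genes with at least 1 UMI, with or without an adjusted p. The edgeR steps were tested on simulated data. Genes named between populations were the 15 highest and 15 lowest log2 fold changes among called genes with at least 50 CPM in the higher population, leaving out gate, antigen receptor, immunoglobulin, sex-linked, mitochondrial, ribosomal, haemoglobin and unnamed genes. Between libraries they were the 12 highest and 12 lowest. Coordinates are from GENCODE M21. The lists are those of regulatory T cell identity, suppression, effector factors, the ST2, Th1-type, type 17 and follicular programs, resting, homing, IL-27, interferon, stress, cycle and cytokine genes, and markers of B, plasma, NK, myeloid, mast and epithelial cells. Some genes are counted in the lists but not reported by name here.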

Additional observations from a re-analysis of the deposited data

How the results depend on the processing

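No paired analysis was possible because wells carry no number shared between the treatments, and each treatment is 1 library. Between populations the well was the block. Without it 309 genes were called over other Foxp3+ T cells (411 with it) and 241 over effector CD4 T cells (443 with it, 233 shared). DESeq2 called 128 over other Foxp3+ T cells, of 1229 genes with an adjusted p, and 161 over effector CD4 T cells. Leaving out a well gave 252 to 358 calls over other Foxp3+ T cells and 298 to 435 over effector CD4 T cells. The IL-27 over PBS ratio of the share among all cells, 0.938, was 0.687 under a stricter doublet filter, 0.791 at 1500 UMIs per cell and 0.820 to 1.07 with a well left out. That among Foxp3+ T cells, 0.743, was 0.629 at 1500 UMIs per cell, 0.609 without PBS well 1 and 0.894 without PBS well 2. The 101 genes past 1.5-fold (38 higher, 63 lower; 47 and 54 under TMM scaling) became 1260 without a CPM minimum, 21 with members thinned to 1000 UMIs and 82 to 207 with a well left out. The 23 treatment calls became 119 with every gene of at least 1 UMI, 13 in DESeq2, 0 under the stricter doublet filter (of 3608 genes, 176 at a raw p under 0.05) and 0 without the Tyrobp cells (an alternative chosen after the data were seen). With a well left out they were 14 to 104. Log2 ratios of libraries that changed sign were those of Slc29a1 when thinned (-0.036) and, under the stricter doublet filter, Ccl6 (1.27), Tyrobp (0.43) and H2-Ab1 (0.15). Lgals7 ranged from -3.31 to 0.73 with a well left out. Over effector CD4 T cells Spp1 was at 0.26 in cells of 2000 to 5000 UMIs. The cause was not tested. At 266587 to 442944 UMIs per well, genes under about 50 CPM rest on few UMIs.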

Other observations

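Several further genes set members with a Klrg1 UMI apart from those without, again chosen after their values were seen and given with no test. Gpr15, which guides T cells to the colon, stood at 58.0 CPM in Klrg1+ members and 24.4 CPM in the others, and was higher in 5 of 5 wells. Hopx, a cofactor of peripherally induced regulatory T cells, stood at 138 CPM and 63.7 CPM, higher in 4 wells. Ly6a, at 565 CPM and 241 CPM, was higher in 3 wells, and Rln3, at 309.9 CPM and 116 CPM, in 4. Tnfsf8 ran the other way, at 12.7 CPM in Klrg1+ members and 47.2 CPM in the others, and was higher in 1 well.

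Penk, which encodes a precursor of opioid peptides, had a UMI in 22.3% of members, in 9.14% of other Foxp3+ T cells, in 9.54% of effector CD4 T cells and in 0.266% of B cells. Il10 reached 39.7 CPM in the members of PBS well 2, a value that rests on few cells, since only 5 of 364 members over all wells had an Il10 UMI.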
